A study of Mus musculus with 4 samples.

Results

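The 49 genes described here carry or serve antigen presentation, chosen from 50600 genes counted in 4 RNA libraries. They are the genes of mouse chromosome 17 whose symbol begins with H2-, the mouse major histocompatibility complex (MHC), together with B2m, Tap1, Tap2, Tapbp, Cd74, Ciita and Nlrc5. Names ending in ps were left out, which removed 3 pseudogenes, and H2-M10.5-ps1 stayed by that rule. There were 30 class I H2 genes, 5 partners of class I, 11 class II H2 genes, 2 partners of class II, and H2-Ke6, a steroid dehydrogenase gene that lies in the region and belongs to neither class. The libraries came from primary mouse cells of strain C57BL/6NJ labelled T-helper 2 cells, helper T cells that make interleukin 4. They are biological replicates 1 to 4 of a single group, with 1 donor identifier in common, unknown age and no treatment named. The labels do not say whether the samples came from separate mice, so p-values measure the spread between these samples only, which may be technical. The file headers name all 4 samples as 0 hours of a time course of Th1 and Th2 cells. The linked library protocol carries polyadenylated RNA in its name, although total RNA is what the sample labels give. With a single group, members were compared with the genes on the opposite DNA strand and with each other inside each library.

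Class I molecules stand on nearly every nucleated cell and show peptides from inside the cell to CD8 T cells. Their heavy chain, encoded by an H2 gene, pairs with B2m (beta-2 microglobulin). Peptides cut by the immunoproteasome are carried into the endoplasmic reticulum by the transporter Tap1-Tap2 and loaded with the help of Tapbp (tapasin). Class II molecules show peptides from endosomes to CD4 T cells and are made chiefly by B cells, dendritic cells and macrophages. Mouse T cells are not known as class II producers. Nlrc5 activates class I genes and Ciita activates class II genes.

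Libraries held 1452053 to 2351916 counts, and the members took 0.111% to 0.152% of them. Fragments were counted for a gene by strand setting 1, which takes the first read to lie on the gene's own strand. The kit is not named, and whether this setting matches it was not tested. If it does not, a count comes from the strand opposite to the gene. Of all counts 87.6% to 89.6% lay in genes that overlap an exon on the opposite strand. Cd3e, a T cell receptor complex gene, had 27.7 CPM against 2780 CPM for its opposite gene Gm48719. The values below are therefore fragments counted under that setting, and neither a high nor a low count is read as an amount of transcript. TPM below is the count per exon length, scaled so that every library has the same sum, and CPM is the count scaled for library total without division by length. A mean of 1 TPM or more was reached by 26 of 49 members, against 21.6% of all genes and 34% of protein-coding genes. No count was found for 16 of the 49 members, against 66.4% of all genes and 44.6% of protein-coding genes. At most 3 counts over the 4 libraries were found for 19 members. No molecular identifiers are named, so intervals and limits speak of counting error alone.

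Classical class I genes and H2-Q4 stood highest among the H2 genes. Of 30 class I genes 13 reached a mean of 1 TPM (43.3%). No count was found for 12 of the 30, against 66.4% of all genes and 44.6% of protein-coding genes. The promoter windows of H2-K1, H2-D1 and H2-Q4 are shown because they resemble each other and because that of H2-Q4 lies wholly inside exon sequence of the other strand. They are RefSeq windows on GRCm38.p6 that run from 250 bases before to 50 bases after the gene start in RefSeq. They lie at chr17:34000284-34000583 on the minus strand for H2-K1, chr17:35262844-35263143 on the plus strand for H2-D1 and chr17:35379367-35379666 on the plus strand for H2-Q4. The counted gene H2-D1 starts at 35262730, before its RefSeq start, so the printed H2-D1 window lies inside the counted gene. Capitals mark GGGGATT, with which the kappaB site of classical class I promoters begins, the CCAAT box, and TGACG, the core of cyclic AMP response elements. Each was searched on both strands.
H2-K1: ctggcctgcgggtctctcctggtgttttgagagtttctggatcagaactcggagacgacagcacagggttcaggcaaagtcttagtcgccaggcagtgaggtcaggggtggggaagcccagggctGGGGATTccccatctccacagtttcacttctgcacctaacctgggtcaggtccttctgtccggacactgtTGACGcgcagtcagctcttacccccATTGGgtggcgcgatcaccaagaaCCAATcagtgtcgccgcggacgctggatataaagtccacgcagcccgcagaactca
H2-D1: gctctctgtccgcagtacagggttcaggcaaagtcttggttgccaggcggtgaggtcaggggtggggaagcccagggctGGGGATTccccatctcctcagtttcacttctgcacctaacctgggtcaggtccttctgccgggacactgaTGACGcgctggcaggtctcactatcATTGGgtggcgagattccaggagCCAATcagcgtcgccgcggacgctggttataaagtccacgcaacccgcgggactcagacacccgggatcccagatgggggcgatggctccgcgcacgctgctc
H2-Q4: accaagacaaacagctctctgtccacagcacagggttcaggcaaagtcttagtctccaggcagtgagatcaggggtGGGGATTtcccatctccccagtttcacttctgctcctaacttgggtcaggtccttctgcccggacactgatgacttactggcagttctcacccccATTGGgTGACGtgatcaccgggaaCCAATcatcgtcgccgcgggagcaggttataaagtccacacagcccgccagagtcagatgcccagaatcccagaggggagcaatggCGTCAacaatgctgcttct
GGGGATT occurred once in each of the 3 windows, CCAAT occurred 2 times in each, and TGACG occurred once in H2-K1 and H2-D1 and 2 times in H2-Q4. Over aligned bases the windows of H2-K1 and H2-D1 were 87.7% identical, those of H2-K1 and H2-Q4 82.8% and those of H2-D1 and H2-Q4 83.1%. Of 22 class I genes with a window, 9 held GGGGATT, found in 3.10% of all 32851 windows, 19 held CCAAT, found in 37.4%, and 11 held TGACG, found in 20.8%. GGGGATT was picked because class I promoters hold it, and the 3 printed windows resemble each other, so these shares are no test of enrichment. A match describes letters and not binding.

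H2-K1, a classical class I heavy chain (ENSMUSG00000061232.15, chromosome 17, 33996017 to 34000333, minus strand), had 137, 202, 150 and 132 TPM in replicates 1 to 4. H2-D1, the other classical heavy chain of this strain (ENSMUSG00000073411.11, 35262730 to 35267499, plus strand), had 72.1, 131, 73.1 and 71.6 TPM. Replicate 2 was the highest library for both genes, and for H2-D1 the other 3 libraries were nearly equal. H2-K1 was 1.77-fold higher than H2-D1 per exon length (95% interval 1.65 to 1.91) and higher in 4 of 4 libraries. The difference was 0.87 ± 0.17 on the log2(TPM + 0.1) scale (SD, n = 4; exact two-sided sign-flip permutation test, adjusted p = 0.167 over 8 ratios). With 4 libraries and 16 sign patterns, no such test can pass 0.05.

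H2-Q4, a non-classical gene of the Q region (ENSMUSG00000035929.11, 35379617 to 35385290), had 200, 201, 189 and 183 TPM. Its level varied least of the members with at least 100 counts, with a coefficient of variation of 4.39% in CPM, against 30.1% for H2-D1 and 17.6% for H2-K1. H2-Q4, H2-K1 and H2-D1 together held 76.8% of the 7742 class I counts. Neither H2-K1 nor H2-D1 has an annotated gene on the opposite strand, while H2-Q4 has Gm11131.

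Other non-classical class I genes were lower. H2-T24 had 52.3 ± 11.9 TPM and H2-T22, a ligand of some gamma-delta T cells, 15.4 ± 4.57 TPM (SD, n = 4). H2-Q7, which encodes a Qa-2 antigen, had 11.4, 21.3, 17.8 and 12.5 TPM, and H2-Q6 had 12.9 ± 2.49. H2-T23 encodes Qa-1, a ligand of the CD94-NKG2 receptors of natural killer cells, and had 7.95, 14.0, 10.3 and 14.8 TPM. H2-T23 was 13.7-fold lower than H2-K1 per exon length (95% interval 11.7 to 16.1) and lower in 4 of 4 libraries (exact sign-flip permutation test, adjusted p = 0.167). H2-M3, which presents N-formylated peptides, had 3, 6, 7 and 3 counts. Of the 13 H2-M genes 10 had no count in any library. H2-Q2, H2-Q10, H2-T3, H2-M5 and H2-M10.2 had 11, 9, 6, 5 and 2 counts in all, and H2-Q1 and H2-Bl had 0. The pseudogenes H2-K2, H2-Q3 and H2-Q5 had 12.7 ± 4.90, 8.21 ± 3.30 and 6.28 ± 3.27 TPM.

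Class I genes are close copies of each other, and the files do not show how fragments with several matches were handled. In GENCODE release 21, 14 class I genes share runs of 100 bases with transcripts of genes at other positions. The share of such runs was 14.0% for H2-Q5, 13.0% for H2-Q6, 11.98% for H2-Q7, 8.86% for H2-T22, 3.59% for H2-D1 and 0.957% for H2-K1. It was 8.05% for H2-Q1, 8.01% for H2-Q10, 7.06% for H2-T10 and 2.27% for H2-Q4. The values of all 14 genes are uncertain for this reason. How large the error is was not tested, and these shares do not set a limit on it. The 2 class II genes H2-DMb1 and H2-DMb2 share 179 such runs with each other, and H2-DMa shares 264 with Brd2.

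**Figure D1:**
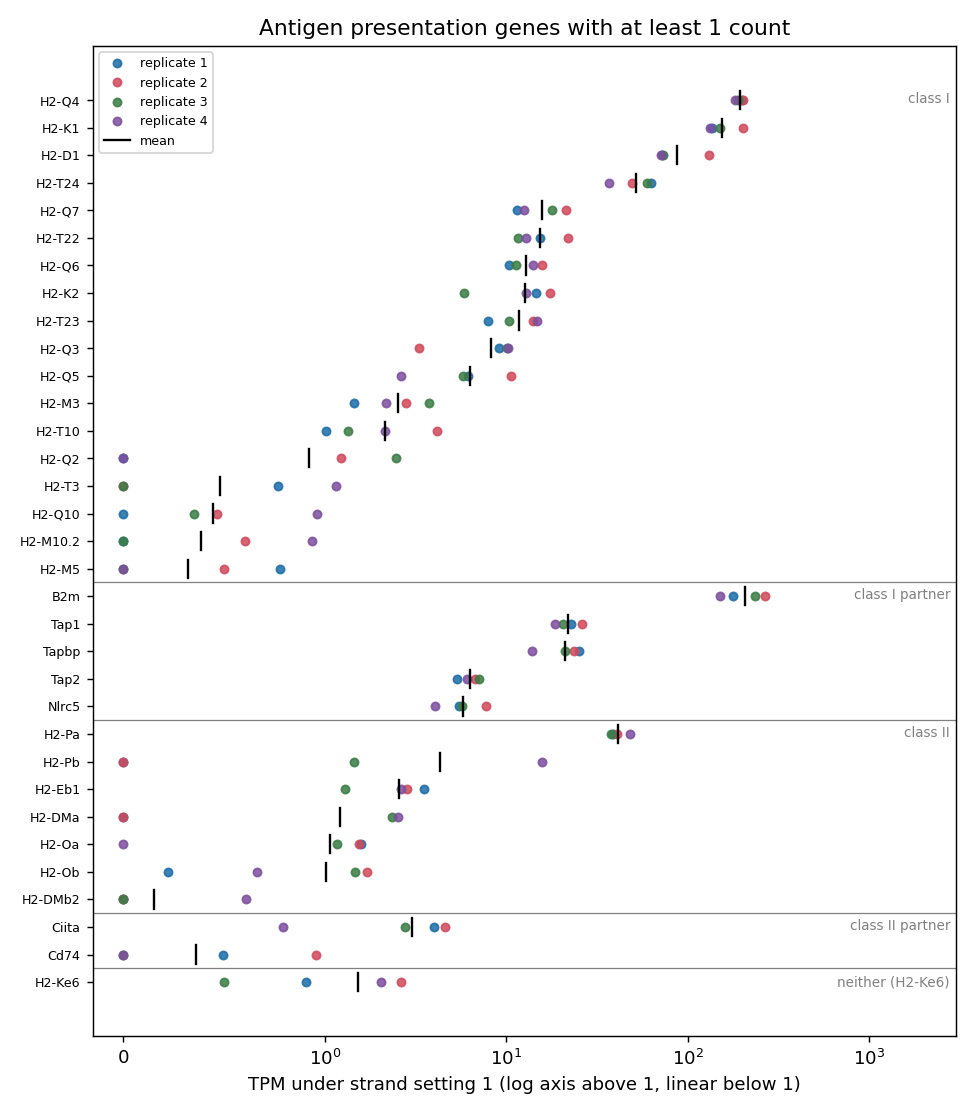
TPM of each member with at least 1 count (rows) in the 4 libraries (coloured points) with the mean (black bar), by class, on an axis that is logarithmic above 1. H2-Q4, H2-K1 and B2m have means of 193, 155 and 208 TPM, and every class II mean except that of H2-Pa lies below 5 TPM.

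The class I light chain gene B2m had the highest TPM of all members. The window of B2m, chr2:122147437-122147736 on the plus strand of GRCm38.p6, is shown beside those of the heavy chains, with the same motifs in capitals.
B2m: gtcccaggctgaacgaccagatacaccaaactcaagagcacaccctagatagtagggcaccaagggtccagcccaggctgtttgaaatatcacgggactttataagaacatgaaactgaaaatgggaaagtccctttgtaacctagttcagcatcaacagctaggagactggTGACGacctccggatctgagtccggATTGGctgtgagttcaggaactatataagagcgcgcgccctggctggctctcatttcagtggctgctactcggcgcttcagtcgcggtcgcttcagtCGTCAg
It held 1 CCAAT box, 2 TGACG motifs and no GGGGATT. B2m (ENSMUSG00000060802.8, chromosome 2, 122147686 to 122153083) had 177, 269, 234 and 150 TPM. It lies within the span of Patl2 on the opposite strand, shares no exon base with it, and Patl2 had 1 count in all. B2m was 1.35-fold higher than H2-K1 per exon length (95% interval 1.25 to 1.45) and higher in 4 of 4 libraries (exact sign-flip permutation test, adjusted p = 0.167). Without division by exon length the order turned round, since B2m has 860 exon bases and H2-K1 has 2608.

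Peptide transport and loading genes had mean levels of 6.32 to 22.0 TPM over the 4 libraries. Tap1 had 22.9, 26.1, 20.6 and 18.5 TPM and Tap2 had 5.34, 6.77, 7.09 and 6.07 TPM, so that the ranges of these 2 transporter genes did not overlap. Tap1 was 3.54-fold higher than Tap2 per exon length (95% interval 2.92 to 4.33; exact sign-flip permutation test, adjusted p = 0.167). Tapbp had 25.1, 23.7, 21.2 and 13.9 TPM, with replicate 4 the lowest. Nlrc5, the class I activator, had 5.49, 7.77, 5.68 and 4.05 TPM, and Ciita 3.97, 4.61, 2.77 and 0.794. Nlrc5 was 1.81-fold higher than Ciita per exon length (95% interval 1.42 to 2.33) and higher in 4 of 4 libraries (exact sign-flip permutation test, adjusted p = 0.167).

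Class II genes had few fragments under this strand setting. Because the setting may not match the kit, these counts do not show whether class II transcripts were present or absent. H2-Aa and H2-Ab1, which encode the 2 chains of the I-A molecule, had 0 counts in all 4 libraries, as did H2-Eb2 and H2-DMb1. A count of 0 allows up to 3 counts, or 1.28 to 2.07 CPM per library. The window of H2-Aa, chr17:34287774-34288073 on the minus strand of GRCm38.p6, is shown against those of the class I genes, with the same motifs in capitals.
H2-Aa: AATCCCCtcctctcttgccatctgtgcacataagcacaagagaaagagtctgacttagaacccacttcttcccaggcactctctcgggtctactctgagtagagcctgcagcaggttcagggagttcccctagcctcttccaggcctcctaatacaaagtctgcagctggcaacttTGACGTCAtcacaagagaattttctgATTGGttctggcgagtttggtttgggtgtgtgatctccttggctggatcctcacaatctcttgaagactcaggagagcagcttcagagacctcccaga
It held 1 CCAAT box, 1 GGGGATT at its far end and 2 overlapping TGACG motifs, 1 on each strand. All 8 class II genes with a window held CCAAT, and among them H2-Aa alone held GGGGATT or TGACG. H2-Eb1 had 6, 5, 2 and 3 counts. H2-DMa, a chain of the H2-DM molecule that edits peptides on class II molecules, had 0, 0, 5 and 4 counts and H2-DMb2 had 1 in all. With H2-Aa taken at 3 counts over the group, H2-DMa at its observed 9 counts was 3.43-fold higher per exon length. The counting error of H2-DMa is not included in this ratio. H2-DMa had counts in 2 of 4 libraries (exact sign-flip permutation test, adjusted p = 0.571). Without replicate 3 or replicate 4 the ratio was 1.52-fold or 1.90-fold. H2-Oa and H2-Ob, whose product inhibits H2-DM, had 8 and 17 counts in all.

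Cd74, the invariant chain that escorts class II molecules, had 1, 2, 0 and 0 counts (chromosome 18, 60803848 to 60812646). It was 519-fold lower than B2m per exon length (95% interval 177 to 2519; exact sign-flip permutation test, adjusted p = 0.167). Without replicate 2, which leaves 1 count, it was 994-fold lower. H2-Ke6, which has no part in presentation, had 2, 6, 1 and 3 counts and shares 1309 exon bases with Gm20427 on its own strand.

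The 9 protein-coding class II genes held 51 counts in all. Of the 11 class II genes 6 reached a mean of 1 TPM (54.5%), but only H2-Pa had at least 3 counts in every library, and H2-Pa and H2-Eb1 alone reached 1 TPM in each. H2-Pa, an unprocessed pseudogene (34084672 to 34085823), had 35, 38, 31 and 29 counts. Its mean level was 41.5 ± 4.70 TPM (SD, n = 4), and it held 68.9% of the 193 class II counts. H2-Pb, its neighbouring pseudogene, had 0, 0, 1 and 8 counts. In bulk RNA, fewer cells of a type and less RNA per cell cannot be told apart.

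Markers of the class II producing cells had 0 counts for 54.2% of the 24 genes listed, against 66.4% of all genes and 44.6% of protein-coding genes. The doubt about the strand applies to these zeros as well. All 8 T cell markers reached a mean of 1 TPM, at a summed 177 to 297 TPM per library. Among the B cell markers, Cd79b, Ms4a1, Pax5 and Ebf1 had 0 counts, while Cd79a and Ighm gave the list a sum of 57.0 to 65.4 TPM. Of 8 dendritic cell markers, Itgax, Clec9a and Siglech had 0 counts, while Zbtb46, Xcr1, Flt3 and Batf3 had 44, 17, 12 and 1 in all. The sum over this list was 15.6 to 21.0 TPM, mostly from Ccr9, which T cells also express. Ccr9 had 105 CPM and overlaps 1932 exon bases of AC165425.1, which had 8.94 CPM. Of 8 macrophage markers, Lyz2, Adgre1, C1qa, C1qb and Cd14 had 0 counts, while Cd68 and Itgam had 30 and 10 in all. The sum over this list, 101 to 123 TPM, came mostly from Csf1r. Csf1r had 346 CPM and overlaps 871 exon bases of Hmgxb3, which had 3.43 CPM. What these markers contribute to the class II counts was not tested.

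As lists, the classes were set beside all genes. The median over class I genes was -1.14 ± 1.05 on the log2(TPM + 0.1) scale and that over class II genes -1.70 ± 1.90 (SD, n = 4). Over all protein-coding genes it was -3.14 ± 0.363. With a pseudocount of 1 TPM the class I median was 0.56 and the class II median 0.45. In each library the summed class I counts exceeded the class II counts, at 857 to 1134 against 21.1 to 32.4 CPM. These sums run over 30 and 11 genes and are not divided by exon length. H2-Q4, H2-K1 and H2-D1 held 76.8% of the class I counts and H2-Pa held 68.9% of the class II counts.

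Of the members, 10 overlap exons of a gene on the opposite strand, and 10 such opposite genes were found. Over the 4 libraries these 10 members held 4558 counts, against 93249 for the opposite genes, which held 17.7 to 24.1 times as many in each library. Each member was tested against the opposite gene of largest exon overlap, within libraries and per exon length. By edgeR's quasi-likelihood test with Benjamini-Hochberg adjustment over 3055 pairs, 9 of 10 members differed from their opposite gene, against 89.3% of all pairs. In 8 the member was lower, where the first gene of a pair was lower in 62.4% of all pairs, and where the coding gene was lower than a non-coding opposite gene in 77.7% of 1712 pairs. The share of members called is close to that of all pairs. The direction of every pair rests on the strand setting: if it is the reverse of the kit's, fragments from shared exons stand under the other gene of the pair.

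Tap2 showed the widest gap. The long non-coding gene Gm15821 overlaps 533 exon bases of Tap2, which is 44.05% of its own exons. Tap2 had 29, 38, 35 and 22 counts, and Gm15821 had 5442, 5110, 4261 and 3410. Tap2 was 459-fold lower per exon length (95% interval 385 to 552), or -8.83 ± 0.21 on the log2 scale (SE; edgeR adjusted p = 1.08e-14). A further opposite gene, Gm20496, runs over exons of Tap2 (165 bases) and of the immunoproteasome gene Psmb8 (186 bases) and had 7483, 6674, 6480 and 5123 counts. Tap2 was 1185-fold lower than Gm20496 per exon length (95% interval 993 to 1425).

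H2-Q4 had 745, 776, 641 and 456 counts, against 10353, 10124, 8362 and 6599 for Gm11131, the opposite gene with the most counts. H2-Q4 was 11.3-fold lower per exon length (95% interval 10.8 to 11.7), or -3.50 ± 0.15 on the log2 scale (SE; edgeR adjusted p = 1.31e-12). Per exon length H2-Q4 stood at 8.31% to 9.22% of Gm11131 in the 4 libraries. The H2-Q4 window printed above lies with all 300 bases in exon sequence of Gm11131.

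Tapbp had 119, 116, 91 and 44 counts, and its opposite gene Gm19412, of whose exons it covers 77.0%, had 2378, 1974, 1650 and 1447. Tapbp was 76.8-fold lower (95% interval 69.2 to 85.5; edgeR adjusted p = 1.67e-13). Gm19412 also overlaps 46 exon bases of Zbtb22, and Tapbp shares 61 exon bases with Zbtb22 on its own strand.

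In the T region, A930015D03Rik has 90.3% of its exon bases inside H2-T22. H2-T22 had 75, 111, 52 and 42 counts and A930015D03Rik had 624, 586, 591 and 358, so that H2-T22 was 23.7-fold lower per exon length (95% interval 20.9 to 26.9; edgeR adjusted p = 4.12e-11). H2-T23 and H2-T24 lie within its span and share no exon base with it. BC023719 has 94.6% of its exon bases inside H2-T10, annotated as a polymorphic pseudogene. H2-T10 had 5, 21, 6 and 7 counts, with replicate 2 the highest, and BC023719 had 125, 95, 118 and 96. H2-T10 was 38.9-fold lower per exon length (95% interval 28.0 to 55.5; edgeR adjusted p = 2.74e-08). The log2 ratio was -5.37, and -5.99 without replicate 2.

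Tap1 and Psmb9, an immunoproteasome subunit gene, lie head to head and overlap over 212 exon bases. The Tap1 window, chr17:34187306-34187605 on the plus strand of GRCm38.p6, is shown because the Psmb9 window is its reverse complement over 275 of 300 bases. Capitals mark the same motifs as above.
Tap1: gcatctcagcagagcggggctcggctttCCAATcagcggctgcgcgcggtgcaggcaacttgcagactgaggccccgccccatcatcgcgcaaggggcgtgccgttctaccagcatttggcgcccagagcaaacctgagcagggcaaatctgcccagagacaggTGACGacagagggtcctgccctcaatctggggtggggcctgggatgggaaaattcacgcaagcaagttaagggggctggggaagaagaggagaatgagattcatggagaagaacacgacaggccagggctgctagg
It held 1 CCAAT box, 1 TGACG motif and no GGGGATT. Tap1 had 180, 212, 147 and 97 counts and Psmb9 650, 629, 597 and 374, which put Psmb9 at 118 ± 8.47 TPM (SD, n = 4). Tap1 was 5.29-fold lower per exon length (95% interval 4.85 to 5.79), or -2.43 ± 0.20 on the log2 scale (SE; edgeR adjusted p = 8.31e-09). Most of either gene lies outside the overlap, which covers 3.87% of Tap1 exons and 5.79% of Psmb9 exons.

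The remaining pairs ran from H2-Oa, far below its opposite gene, to Ciita, above it. Nlrc5 had 67, 98, 63 and 33 counts and the non-coding 9330175E14Rik, which overlaps 78 of its exon bases, had 353, 317, 272 and 208. Nlrc5 was 6.30-fold lower per exon length (95% interval 5.50 to 7.24; edgeR adjusted p = 6.11e-08). BC051537 overlaps H2-Oa and H2-Pa and had 106, 108, 69 and 94 counts. H2-Oa was 37.1-fold lower than it per exon length (95% interval 18.6 to 86.6; edgeR adjusted p = 3.12e-07). H2-Pa differed from it by -0.08 ± 0.34 on the log2 scale (SE; edgeR adjusted p = 0.83), and without division by exon length by -1.49 (adjusted p = 0.000697). Ciita, with 30, 36, 19 and 4 counts, stood 6.31-fold above Dexi per exon length, which had 3, 2, 1 and 3 counts (95% interval 3.18 to 14.3; edgeR adjusted p = 0.011). Without replicate 1 or without replicate 2 the log2 ratio of Ciita to Dexi was 2.30 or 2.00 with edgeR adjusted p of 0.0536 or 0.0713, so the call was lost, and without replicate 4 it was 3.13.

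**Figure D2:**
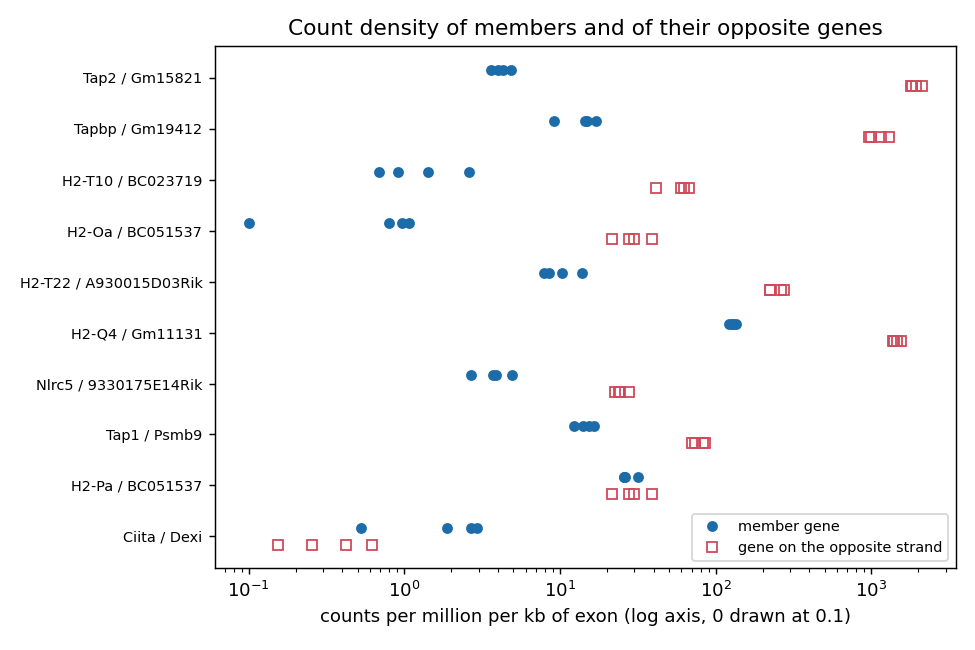
CPM per kb of exon (log axis) of 10 members (filled circles) and of the opposite gene of largest exon overlap (open squares), 1 point per library. The member lies left of its opposite gene in all libraries except for H2-Pa, where the points overlap, and Ciita, which lies to the right in 3 libraries and at 85.1% of Dexi in replicate 4. H2-Oa had no count in replicate 4 and is drawn at 0.1 there.

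Members varied between libraries to different extents. Of the 14 members with at least 100 counts, 8 had their highest CPM in replicate 2. No such share over all genes is given here, so this is not read as a trait of the members. H2-D1 had 125, 213, 128 and 122 CPM in replicates 1 to 4, and its replicate 2 was 1.71 times the mean of the others. For H2-K1 that ratio was 1.36, for B2m 1.35 and for H2-Q4 0.993. Protein-coding genes with no opposite-strand gene held 8.74% of the counts in replicate 2, against 7.08%, 8.14% and 7.13% in replicates 1, 3 and 4, and the part of this in the values of H2-D1 was not tested. In an intercept-only edgeR fit over 5755 genes, none of the 14 members that passed its filter on low counts was more variable than the trend at an adjusted p of 0.05, against 0.278% of all genes, and none with DESeq2 size factors. With no adjustment, 1 member, H2-D1, passed 0.05, as did 285 genes in all, and its edgeR adjusted p was 0.534. Over all genes 16 were called, and 7, 9, 10 or 8 were called without replicate 1, 2, 3 or 4.

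**Figure D3:**
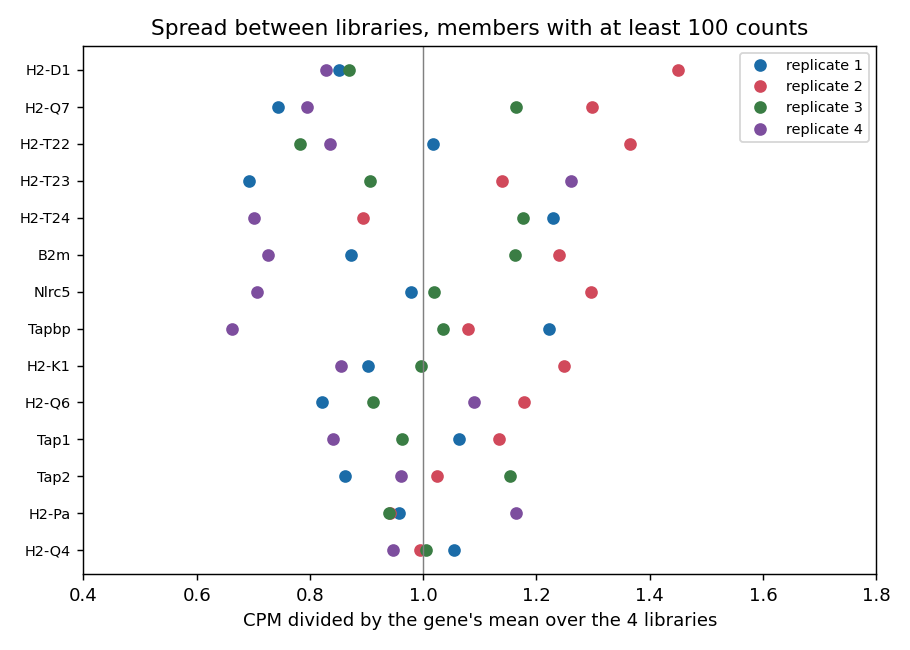
CPM of each member with at least 100 counts divided by its mean over the 4 libraries, ordered by coefficient of variation from H2-D1 (30.1%) to H2-Q4 (4.39%). Replicate 2 stands apart for H2-D1 at 213 CPM, against 122 to 128 CPM in the other libraries.

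Genes that act with the members were read from a list of 32. A mean of 1 TPM was reached by 27 of them (84.4%), against 34% of protein-coding genes. The highest were Rfxank, a subunit of the RFX complex that binds class II promoters, at 207 ± 12.9 TPM, the tapasin-related gene Tapbpl at 119 ± 30.5, Psmb9 at 118 ± 8.47, the proteasome activator gene Psme1 at 45.8 ± 10.6, the chaperone gene Calr at 34.3 ± 9.42 and Ifi30, a lysosomal thiol reductase gene, at 32.0 ± 7.44 (SD, n = 4). Rfxank overlaps 1341 exon bases of Nr2c2ap, and Psme1 and Ifi30 overlap shorter stretches of opposite-strand exons. March8, a ubiquitin ligase gene, had 0 counts. Psmb8, with 17, 44, 52 and 30 counts, lies opposite to Gm20496. Of the 10 list genes with an opposite-strand exon overlap, 6 had a lower mean CPM, not divided by exon length, than the opposite gene. By the edgeR test per exon length, the first gene was lower in 62.4% of all pairs. The count of 6 is therefore not read as a trait of the list. Of 20 neighbours in the MHC with no role in presentation, 19 reached a mean of 1 TPM, with Rps18, a ribosomal protein gene, the highest at 123 ± 11.3 TPM and complement gene C4b at 0 counts.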

How the data were processed

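Fragment counts per gene were analysed for 4 libraries of 1 group. The deposited values are raw counts made by the authors, per the file headers, with featureCounts 1.4.6-p4 (both ends aligned, strand setting 1) over exons of GENCODE mouse release 13 after STAR alignment to mm10. The kit, which decides the strand that reads report, is not named in the sources, so whether that setting matches it is not known. The deposited exon lengths were also used. Signal tracks were not analysed here.

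Symbols were joined by identifier for 50376 of 50600 genes, and gene types and transcripts came from GENCODE release 21. Gene coordinates are those of the deposited tables. Promoter windows came from RefSeq (GRCm38.p6), with a window for 34 members, printed for the one nearest to the annotated start. TPM was computed from counts and exon lengths, with a pseudocount of 0.1 TPM for log2 values.

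Opposite genes share at least 1 exon base. Pairs with at least 20 counts were fitted with edgeR 4.0.16 (glmQLFit, glmQLFTest), the library as a block and exon length as an offset, and adjusted over all pairs. The SE is the log2 ratio divided by the root of F. DESeq2 1.42.0 was an alternative. Fold intervals are exact (Clopper-Pearson) from counts summed over libraries. Ratios between members were tested by exact sign-flip permutation, and spread in an intercept-only edgeR fit with TMM factors. Both fits were checked on simulated data. Libraries differed pairwise by a chi-square of 6.29 to 24.8 per degree of freedom, so none was a duplicate.

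The members and lists were chosen with earlier results of these data known. By rule the text names the 7 partner genes, 13 listed H2 genes, the 10 members of highest TPM, members with an opposite exon overlap, and of the pathway list the 6 highest and those at 0. Other named genes, the promoters, the motifs and the comparison of shared runs were chosen after values were seen. Not every marker on the lists is reported here.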

Additional observations from a re-analysis of the deposited data

Results flagged for a closer look

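Each gene with at least 20 counts among the members, their opposite genes and the pathway list, 55 in all, was examined for 1 library far from the others, and 3 met the criterion. Chance marks about 1 gene in 20. H2-D1 had 213 CPM in replicate 2, with the other libraries between 122 and 128. H2-Pa had 19.97 CPM in replicate 4, with the others between 16.1 and 16.4. H2-Q3, an unprocessed pseudogene, had 1.28 CPM in replicate 2, from 3 counts, with the others between 3.75 and 4.16.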

How the results depend on the processing

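The 8 members called lower than their opposite gene numbered 7 when pairs needed an exon overlap of at least 100 bases and 9 with counts not divided by length. With the opposite gene of most counts, 9 pairs were called lower, because Tap2 entered with both Gm15821 and Gm20496. The number stayed at 8 with DESeq2, the other count filters, no replicate block, TMM sizes, and each library left out. Ciita, the 1 member called higher, was not tested with at least 100 counts, since its pair fell below that filter. The number called higher was 0 to 1 when 1 library was left out. All pairs called ranged from 2605 to 2668 when 1 library was left out. No paired analysis between groups was possible because the libraries form 1 group. The class I median became 0.56 with a pseudocount of 1 TPM, 3.30 over members with counts, 0.19 as a mean and -2.70 without opposite overlap, and -1.54 to -0.77 when 1 library was left out. The class II median became 0.45 with 1 TPM and 0.27 over members with counts, and -2.38 to -1.16 when 1 library was left out. Without opposite overlap it was -2.61, so the order of the class I and class II medians turned round, within SDs of 1.25 and 1.41. Class II genes detected numbered 1 at 3 counts in every library, 2 at 1 TPM in every library and 4 to 5 when 1 library was left out. The log2 ratio of B2m to H2-K1 was -1.20 with CPM not divided by length. Genes more variable than the trend numbered 16, and 7 to 10 with 1 library left out. Depth limits class II values: 3 counts are 1.28 to 2.07 CPM.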
